A study of Mus musculus with 6 samples.

Results

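Ketone body metabolism around Bdh1 is described here through 4 genes, Bdh1, Oxct1, Acat1 and Slc16a1, chosen by symbol as genes of ketone oxidation, synthesis and uptake. All 4 were found among 34945 symbols in the table and all 4 were among the 13485 genes with enough counts to be tested. They were chosen with the difference between the genotypes known, so that difference is described for them and not tested. Left ventricular tissue came from 3 wild-type mice and 3 mice with the 4SA-Rad knock-in, all labelled C57BL/6N. Rad, encoded by Rrad, is a small GTP-binding protein that holds back L-type calcium channels of heart muscle, and 4SA is known as an allele in which serines phosphorylated by protein kinase A are changed to alanine. A knock-in of this kind is carried by every cell of the animal and not by heart muscle alone, and the labels give neither age, sex nor zygosity. The labels name each mouse separately, and values for single mice are given in the order of mice 1, 2 and 3 of each genotype.

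Ketone bodies are small water-soluble fuels that the liver makes from fatty acids during fasting and that heart, brain and muscle burn. Beta-hydroxybutyrate enters the cell through monocarboxylate transporters, is oxidised to acetoacetate by the mitochondrial beta-hydroxybutyrate dehydrogenase (Bdh1), is activated with coenzyme A from succinyl-CoA by the transferase SCOT (Oxct1), and is split by mitochondrial acetoacetyl-CoA thiolase (Acat1) into acetyl-CoA for the tricarboxylic acid cycle. The transporter MCT1 (Slc16a1) carries lactate, pyruvate and ketone bodies across the cell membrane. The healthy heart is known to burn ketone bodies in proportion to their supply in the blood and to make very little of them.

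The libraries held between 24761124 and 39627397 estimated counts, and the shallowest knock-in library (35259459) was deeper than the deepest wild-type one (32669182). Levels are given as counts-per-million (CPM), scaled by the TMM method. Rrad was at 30.0 to 44.7 CPM in wild-type mice, against 27.0 to 56.8 CPM in knock-in mice, and the count per gene does not show which allele is present. Nnt, an inner-membrane transhydrogenase gene that carries a deletion in the C57BL/6J substrain, was at 262 to 282 CPM in wild-type mice, against 596 to 729.6 CPM in knock-in mice, although all mice are labelled C57BL/6N. The Nnt level divides the 6 mice exactly as the 4SA allele does, so the allele and any difference in genetic background cannot be told apart in any value that follows. Heart muscle markers were high in every mouse, with a summed level over 8 genes of 39214 to 41329 CPM in wild-type mice, against 40926 to 41911 CPM in knock-in mice. Of these 8 markers edgeR called 0, with 4 at an unadjusted p below 0.05, while DESeq2 called 4 and limma-voom 2. Markers of atrial heart muscle were uneven between mice. Their sum over 4 genes was 49.6 to 127 CPM in wild-type mice, against 69.8 to 122 CPM in knock-in mice. Myl7 of this list was at 1.17 to 27.8 CPM in wild-type mice, against 15.1 to 28.1 CPM in knock-in mice. For these 4 edgeR, DESeq2 and limma-voom called 0, with 1 at an unadjusted edgeR p below 0.05. Over 5 macrophage markers the sum was 114 CPM in each wild-type mouse, against 80.8 to 90.7 CPM in knock-in mice, and 4 of the 5 fell. Of 6 endothelial markers 2 fell and 2 had log2 fold changes above 0. The endothelial sum overlapped between the genotypes, at 414 to 439 CPM in wild-type mice, against 389 to 448 CPM in knock-in mice. The part of these cell types in the results was not tested. In whole tissue, fewer cells of a type and less RNA per cell cannot be told apart.

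RefSeq annotates a pair of starts for Bdh1 on the plus strand of GRCm38.p6. The windows around them are shown because Bdh1 differed most of the 4 genes and the deposited count per gene does not separate transcripts from the upstream and the downstream start. Each window holds 250 bases before the start in lower case and 50 bases from the start on in capitals. The upstream window spans chr16:31422047-31422346 and the downstream window chr16:31428503-31428802.
Bdh1, upstream start: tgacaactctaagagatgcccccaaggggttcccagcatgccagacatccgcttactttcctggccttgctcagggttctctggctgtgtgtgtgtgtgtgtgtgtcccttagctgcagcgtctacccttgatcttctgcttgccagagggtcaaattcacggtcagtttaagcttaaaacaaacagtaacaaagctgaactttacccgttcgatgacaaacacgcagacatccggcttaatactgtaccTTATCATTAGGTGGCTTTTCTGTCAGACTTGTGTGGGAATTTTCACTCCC
Bdh1, downstream start: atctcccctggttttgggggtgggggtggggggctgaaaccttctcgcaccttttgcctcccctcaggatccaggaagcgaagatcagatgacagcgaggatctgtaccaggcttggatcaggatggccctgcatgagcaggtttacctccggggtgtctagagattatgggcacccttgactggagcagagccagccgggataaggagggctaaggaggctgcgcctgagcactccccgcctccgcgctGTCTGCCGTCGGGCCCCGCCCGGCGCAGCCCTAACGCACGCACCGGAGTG

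The share of G and C was 48.3% in the upstream and 63.7% in the downstream window. Exact matches on either strand were sought for the nuclear receptor motif AGGTCA, its direct repeat with 1 base between (which contains the first), the E-box CACGTG and the cyclic AMP response element TGACGTCA. These letters were not found in either Bdh1 window or in the Oxct1 window. The Slc16a1 window held a single E-box from base 51 to base 56. Of 32851 annotated windows of the same length, 16.3% held AGGTCA, 0.0396% its direct repeat, 7.15% the E-box and 1.79% the response element. No window was matched for Acat1.

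Bdh1, which interconverts beta-hydroxybutyrate and acetoacetate, lies on chromosome 16 from 31422280 to 31458901 (plus strand, GRCm38, GENCODE M21). Its level was 81.5, 72.0 and 73.1 CPM in the 3 wild-type mice, against 32.3, 25.8 and 26.9 CPM in the 3 knock-in mice. Every knock-in mouse was far below every wild-type mouse. The means were 75.5 ± 5.21 and 28.3 ± 3.52 CPM (SD, n = 3 each), a 2.67-fold lower level and a log2 fold change of -1.41 ± 0.08 (knock-in minus wild-type, ± SE). The knock-in libraries were deeper, yet they held fewer counts of Bdh1, 894 to 1085 against 2092 to 2415. Of the 13485 genes tested, 51 had a lower log2 fold change. The antisense gene Gm15743 overlaps the locus and is not among the counted symbols. Of the 31-base words of Bdh1 transcripts, 12.3% also occur in 3 other genes, of which Gm15743 shares the most. A part of the count therefore cannot be assigned with certainty where the use of strand is not given. Over 15 other settings the value ran from -1.52 to -1.35.

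**Figure D1:**
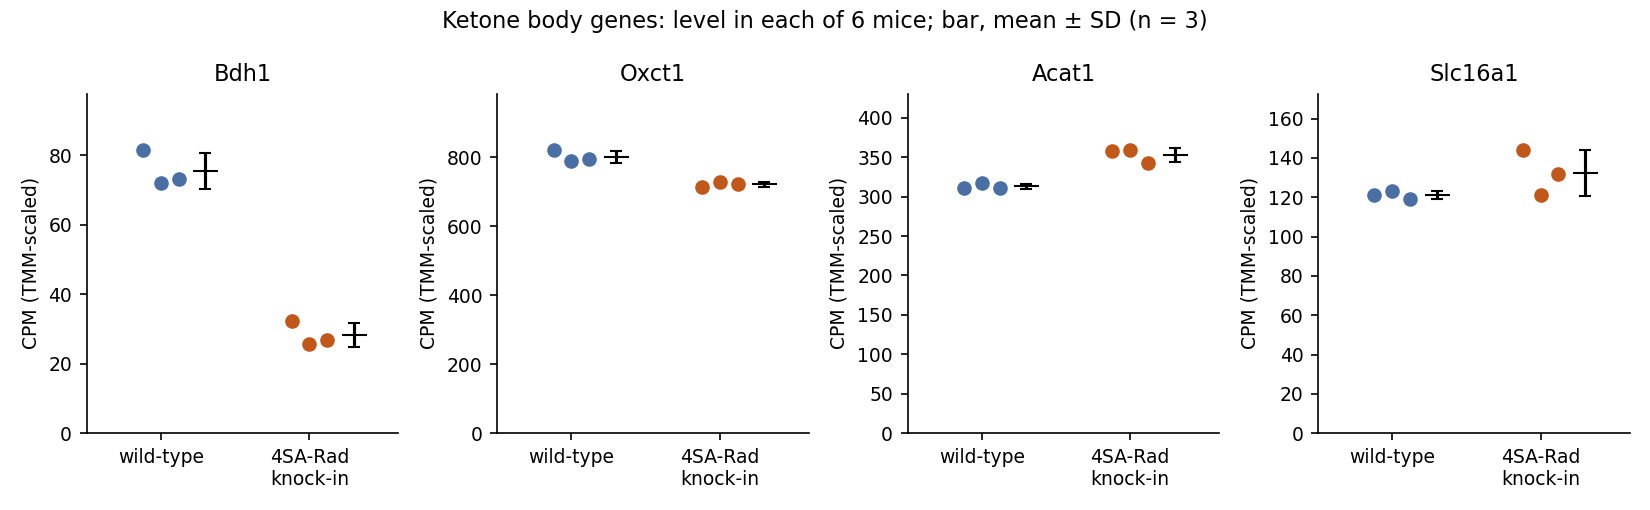
Level of Bdh1, Oxct1, Acat1 and Slc16a1 in counts-per-million in each of 6 mice, with mean ± SD (n = 3) beside the points. Bdh1 was at 72.0 to 81.5 CPM in wild-type mice, against 25.8 to 32.3 CPM in knock-in mice, and the groups overlap for Slc16a1 alone of the 4.

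Oxct1, the transferase SCOT and the step that commits acetoacetate to oxidation, was the most abundant of the 4 genes. It lies on chromosome 15 from 4026383 to 4155344 on the plus strand. The level was 821, 789 and 795 CPM in the 3 wild-type mice, against 713, 728 and 724 CPM in the 3 knock-in mice. All knock-in mice were below all wild-type mice, by a small margin. The means were 802 ± 17.2 and 722 ± 7.89 CPM (SD, n = 3 each), a log2 fold change of -0.15 ± 0.04 (SE), which is 1.11-fold lower. Of its 31-base words 11.8% also occur in BC037032, a transcript that overlaps the start of Oxct1 on the minus strand.

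Acat1, the thiolase that splits acetoacetyl-CoA and also serves isoleucine breakdown, lay on the other side. The gene is on the minus strand of chromosome 9 from 53580522 to 53610382. It was at 311, 317 and 311 CPM in the 3 wild-type mice, against 358, 359 and 343 CPM in the 3 knock-in mice. All knock-in mice were above all wild-type mice. The means were 313 ± 3.66 and 353 ± 9.26 CPM (SD, n = 3 each), with a log2 fold change of 0.18 ± 0.04 (SE), which is 1.13-fold higher. When libraries were scaled by their size alone, which moved the median of all genes by -0.08 on the log2 scale, Oxct1 stood at -0.23 and Acat1 at 0.09.

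Slc16a1, the transporter MCT1, lies on chromosome 3 from 104638668 to 104658462 on the plus strand. Its level was 121, 123 and 119 CPM in the 3 wild-type mice, against 144, 121 and 132 CPM in the 3 knock-in mice. Knock-in replicate 2 lay within the wild-type range and the other two knock-in mice above it, so the groups overlapped. The log2 fold change was 0.13 ± 0.06 (SE), 0.06 without knock-in mouse 1, 0.18 without knock-in mouse 2 and 0.04 with library size alone. MCT1 is also a carrier of the red cell, and the summed level of 5 erythroid markers was 2225, 585 and 739 CPM in the 3 wild-type mice, against 5298, 602 and 2829 CPM in the 3 knock-in mice. All 5 had fold changes above 0, and edgeR called 0 of them, with 0 at an unadjusted p below 0.05 and 0 by DESeq2 or limma-voom. Their part in the Slc16a1 values was not tested.

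The CPM ranges of the genotypes did not overlap for 3 of the 4 genes, 2 of them lower (Bdh1 and Oxct1) and 1 higher (Acat1) in knock-in mice. Over all genes tested the ranges did not overlap in 29.4%, with 14.3% higher and 15.1% lower in knock-in mice. The 4 were picked on this same comparison, so nothing is read from their count.

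Levels can be set against each other only per length. Per kilobase of merged exon, in wild-type mice, Oxct1 stood at 217 ± 4.64 CPM, Acat1 at 83.3 ± 0.974, Slc16a1 at 27.4 ± 0.435 and Bdh1 at 19.4 ± 1.34 (SD, n = 3). In that order no gene's range touched that of its neighbour. By this length Bdh1 was the lowest of the 4 in wild-type ventricle. The order was the same in knock-in mice, where Bdh1 stood at 7.29 ± 0.904 CPM per kilobase. With the longest coding transcript as the length, Bdh1 was at 24.2 ± 1.67 and Slc16a1 at 27.4 ± 0.435 in wild-type mice, still in that order. The count per gene does not separate the transcripts of Bdh1, so the size of its gap to Slc16a1 depends on the length used. Lengths of other Bdh1 transcripts were not tried. Basigin (Bsg), the chaperone that brings MCT1 to the membrane, was at 294 ± 18.0 CPM per kilobase of merged exon in wild-type mice.

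**Figure D2:**
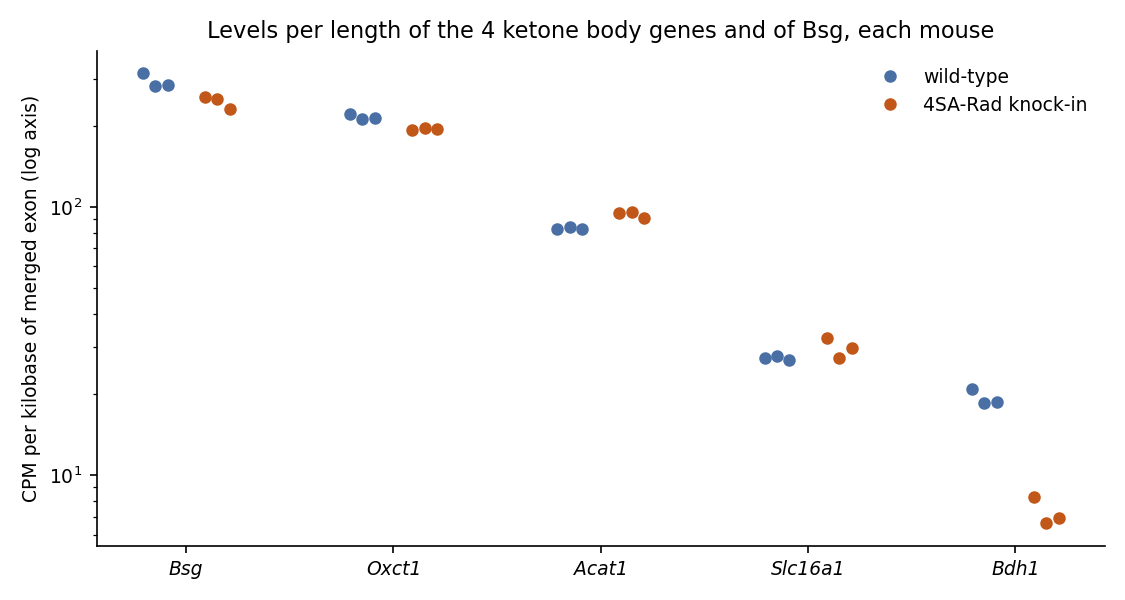
CPM per kilobase of merged exon on a log axis for Bsg and the 4 ketone body genes, with a point for each of 6 mice. Bdh1 is the lowest of the 5 in each genotype, at 19.4 on average in wild-type and 7.29 in knock-in mice.

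The genes were chosen with this comparison known, so the spread between mice of the same genotype is also described and not tested. The coefficient of variation of Bdh1 was 6.90% over the wild-type and 12.4% over the knock-in mice, where the 500 tested genes nearest to it in level had medians of 4.39% and 3.94%. Oxct1 varied by 2.14% and 1.09% and Acat1 by 1.17% and 2.62%, below the medians of their own level (3.01% to 3.61%). Slc16a1 varied by 1.59% in wild-type and 8.54% in knock-in mice, where genes of like level had medians of 3.98% and 3.35%.

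Ratios of counts within a library do not depend on scaling between libraries. There were 9.92, 9.12 and 9.19 Bdh1 counts per 100 Oxct1 counts in the 3 wild-type mice, against 4.54, 3.54 and 3.71 in the 3 knock-in mice. Oxct1 gave 256 ± 7.67 counts per 100 Acat1 counts in wild-type and 204 ± 6.36 in knock-in mice (SD, n = 3 each). In RNA counts, Bdh1 was lower against Oxct1, and Oxct1 lower against Acat1, in the knock-in ventricle, which restates the fold changes given above. Amounts of the enzymes were not measured. Slc16a1 gave 22.8 ± 1.38 counts per 100 Bsg counts in wild-type and 29.6 ± 2.74 in knock-in mice. These ratios hold genes chosen on this comparison and are given without a test.

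**Figure D3:**
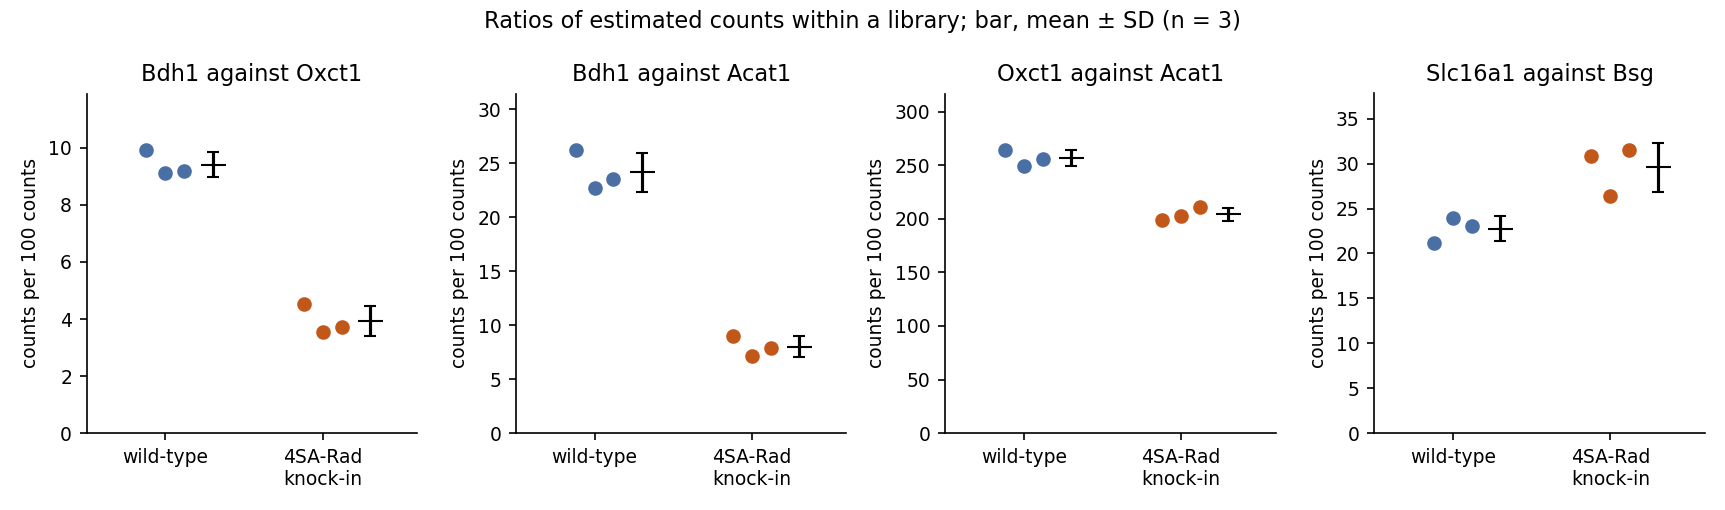
Estimated counts of a gene per 100 counts of another within each library, with mean ± SD (n = 3) beside the points. Bdh1 per 100 Acat1 counts is 24.1 ± 1.84 in wild-type and 8.01 ± 0.939 in knock-in mice. The ratios hold genes chosen on this comparison, so the gap between the genotypes is described and not tested.

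Other genes of the pathway came from 10 lists of 83 genes in all. Of these 68 entered edgeR's quasi-likelihood test. With a threshold of 0.05 on the adjusted p, 10 of them rose, 4 fell and 54 did not pass. Among all genes tested 9.01% were called, 4.00% as higher and 5.01% as lower. The median log2 fold change was 0.00 over the 68 genes and 0.00 over all genes tested. Of the 15 listed genes that were not tested, 10 had at most 7 counts in any library. The other 5 had 0 counts in every library (Oxct2b, Ffar3, Fgf21, Foxa2 and Hnf4a), which allows up to 0.0744 to 0.117 CPM by a limit of 3 counts in a library. The cytosolic dehydrogenase Bdh2 was among the untested genes, with 2 to 7 counts in a library. The receptor Hcar2, which senses beta-hydroxybutyrate in fat and immune cells, had at most 1 count.

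Of the synthesis genes, Hmgcs1, the cytosolic synthase of the cholesterol route, was at 20.8 ± 0.915 CPM in wild-type mice, against 21.3 ± 0.598 CPM in knock-in mice (SD, n = 3 each). Its log2 fold change was 0.03 ± 0.06 (SE, edgeR adjusted p = 0.781).

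Among transport genes, 2 of 5 tested fell and 3 did not pass. Slc16a7, encoding the high-affinity carrier MCT2, was at 6.70, 6.05 and 6.63 CPM in the 3 wild-type mice, against 2.82, 3.75 and 4.39 CPM in the 3 knock-in mice. All knock-in mice were below all wild-type mice, a 1.76-fold fall (log2 fold change -0.81 ± 0.15 SE, edgeR adjusted p = 0.0107) that was called in all 6 fits that left out a library. Bsg fell from 533 ± 32.7 to 448 ± 24.9 CPM (SD, n = 3 each, log2 fold change -0.25 ± 0.06 SE, edgeR adjusted p = 0.0256). Its edgeR adjusted p was 0.0714 without wild-type mouse 1, 0.0526 without wild-type mouse 3, 0.0522 without knock-in mouse 2 and 0.116 without knock-in mouse 3. The lactate exporter Slc16a3 (MCT4) was below 1 CPM in every mouse with an edgeR adjusted p of 0.206.

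The succinyl-CoA ligases, which draw on the same succinyl-CoA as SCOT, gave no call by edgeR among 3 tested genes, 0 at an unadjusted p below 0.05 and 0 by DESeq2 or limma-voom. Suclg2 had a log2 fold change of -0.08 ± 0.04 (SE, edgeR adjusted p = 0.306) and Suclg1 of -0.04 ± 0.04 (0.548). Of 5 genes that handle lactate and pyruvate, the other cargo of MCT1, 1 fell and 4 did not pass. Mpc2, a subunit of the mitochondrial pyruvate carrier, fell from 92.7 ± 3.68 to 81.8 ± 0.192 CPM (SD, n = 3 each, edgeR adjusted p = 0.0314). Of the 6 fits with a library removed it passed in 1, the one without wild-type mouse 3, with adjusted p-values of 0.0587 to 0.127 in the others, and it was at 0.0519 with upper-quartile factors. All 5 genes of that list had log2 fold changes below 0, from -0.18 to -0.02 with a median of -0.13. Over all genes tested 6643 of 13485 were below 0.

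Of 6 enzymes at the last steps of beta-oxidation, 1 rose and 5 did not pass. Hadha, the subunit of the trifunctional protein with hydratase and dehydrogenase activity, rose from 837 ± 41.3 to 976 ± 34.4 CPM (SD, n = 3 each, log2 fold change 0.22 ± 0.05 SE, edgeR adjusted p = 0.0244). It did not pass without wild-type mouse 1 (edgeR adjusted p = 0.062), wild-type mouse 3 (0.0886), knock-in mouse 2 (0.0866) or knock-in mouse 3 (0.0735), nor with library size alone (0.235).

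Branched-chain amino acid breakdown shares Acat1, and its leucine branch ends in acetoacetate. Of 20 tested genes 5 rose and 15 did not pass, with 10 fold changes above 0, 10 below 0 and a median of 0.03 on the log2 scale. Ppm1k, the phosphatase that activates the branched-chain ketoacid dehydrogenase, was at 61.4, 61.6 and 65.0 CPM in the 3 wild-type mice, against 80.6, 82.4 and 82.9 CPM in the 3 knock-in mice. That is a rise of 1.31-fold (log2 fold change 0.39 ± 0.04 SE, edgeR adjusted p = 0.00113) with a wide gap between the groups. It was called in all 15 other settings.

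The other 4 genes that rose sit on the leucine branch (Ivd and Mccc2) and on the propionyl-CoA branch (Pccb and Mmut). Ivd, isovaleryl-CoA dehydrogenase, rose from 225 ± 0.565 to 259 ± 2.08 CPM (edgeR adjusted p = 0.0132), and Mccc2, a subunit of methylcrotonyl-CoA carboxylase, from 34.9 ± 2.16 to 41.9 ± 0.401 CPM (0.0193). Pccb, a subunit of propionyl-CoA carboxylase, rose from 56.5 ± 2.11 to 68.5 ± 3.68 CPM (edgeR adjusted p = 0.0123). Mmut, methylmalonyl-CoA mutase, rose from 72.6 ± 1.15 to 83.9 ± 3.41 CPM (0.0207). With library size alone these 4 did not pass (edgeR adjusted p = 0.232, 0.135, 0.0781 and 0.175). Without knock-in mouse 3 Ivd, Mccc2 and Mmut did not pass (0.0634, 0.0799 and 0.0507). Mccc2 was also lost without wild-type mouse 2 (0.0673), wild-type mouse 3 (0.078) or knock-in mouse 2 (0.0558), and Mmut without wild-type mouse 1 (0.0589), 2 (0.0607) or 3 (0.057) or knock-in mouse 2 (0.0651). The partner subunits of the carboxylases did not pass. Mccc1 had a log2 fold change of 0.12 ± 0.05 (SE, edgeR adjusted p = 0.129) and Pcca of -0.06 ± 0.05 (0.529).

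PPAR-alpha is a nuclear receptor that switches on genes of fatty acid and ketone metabolism in fasting. Of 8 tested regulators, 1 fell (Ppara) and 7 did not pass. Ppara fell from 28.5 ± 2.20 to 22.2 ± 2.66 CPM (SD, n = 3 each, log2 fold change -0.36 ± 0.09 SE, edgeR adjusted p = 0.036). It did not pass without wild-type mouse 2 (edgeR adjusted p = 0.0939), wild-type mouse 3 (0.122), knock-in mouse 2 (0.0853) or knock-in mouse 3 (0.111). Its coactivator Ppargc1a was at 93.3, 89.5 and 141 CPM in the 3 wild-type mice, against 80.9, 79.8 and 79.2 CPM in the 3 knock-in mice, a difference that missed the threshold (edgeR adjusted p = 0.0811).

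Of 17 tested genes known to respond to PPAR-alpha, 4 rose, with Cpt1a, Fabp3 and Acadm among them, and 13 did not pass. Among all genes tested edgeR called 4.00% as higher. An unadjusted edgeR p below 0.05, in either direction, was reached by 13 of the 17, the 4 that rose included. The list had a median log2 fold change of 0.17, against 0.00 over all genes tested. A positive sign was seen in 15 genes of this list, where 6842 of 13485 tested genes had one. Acadm, medium-chain acyl-CoA dehydrogenase, rose from 682 ± 7.94 to 767 ± 22.0 CPM (edgeR adjusted p = 0.034). It did not pass in any of the 6 fits that left out a library (0.056 to 0.124) or with library size alone (0.396). Fabp3, the fatty acid carrier of heart muscle, rose by 0.23 ± 0.05 on the log2 scale (SE, edgeR adjusted p = 0.0176), but did not pass without wild-type mouse 1 (0.0563), wild-type mouse 3 (0.0715) or knock-in mouse 2 (0.0625), nor with library size alone (0.175). Cpt1a, the gate of mitochondrial fatty acid import, rose 1.26-fold (edgeR adjusted p = 0.00843) and was called in all 15 other settings. Pdk4, which shuts pyruvate dehydrogenase and responds strongly to fasting, overlapped between the groups, at 115 to 156 CPM in wild-type mice, against 80.9 to 141 CPM in knock-in mice. Its log2 fold change was -0.16 ± 0.18 (SE, edgeR adjusted p = 0.635). Only 2 of the 17 genes were below 0, so Pdk4 does not stand for the other genes that did not pass.

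**Figure D4:**
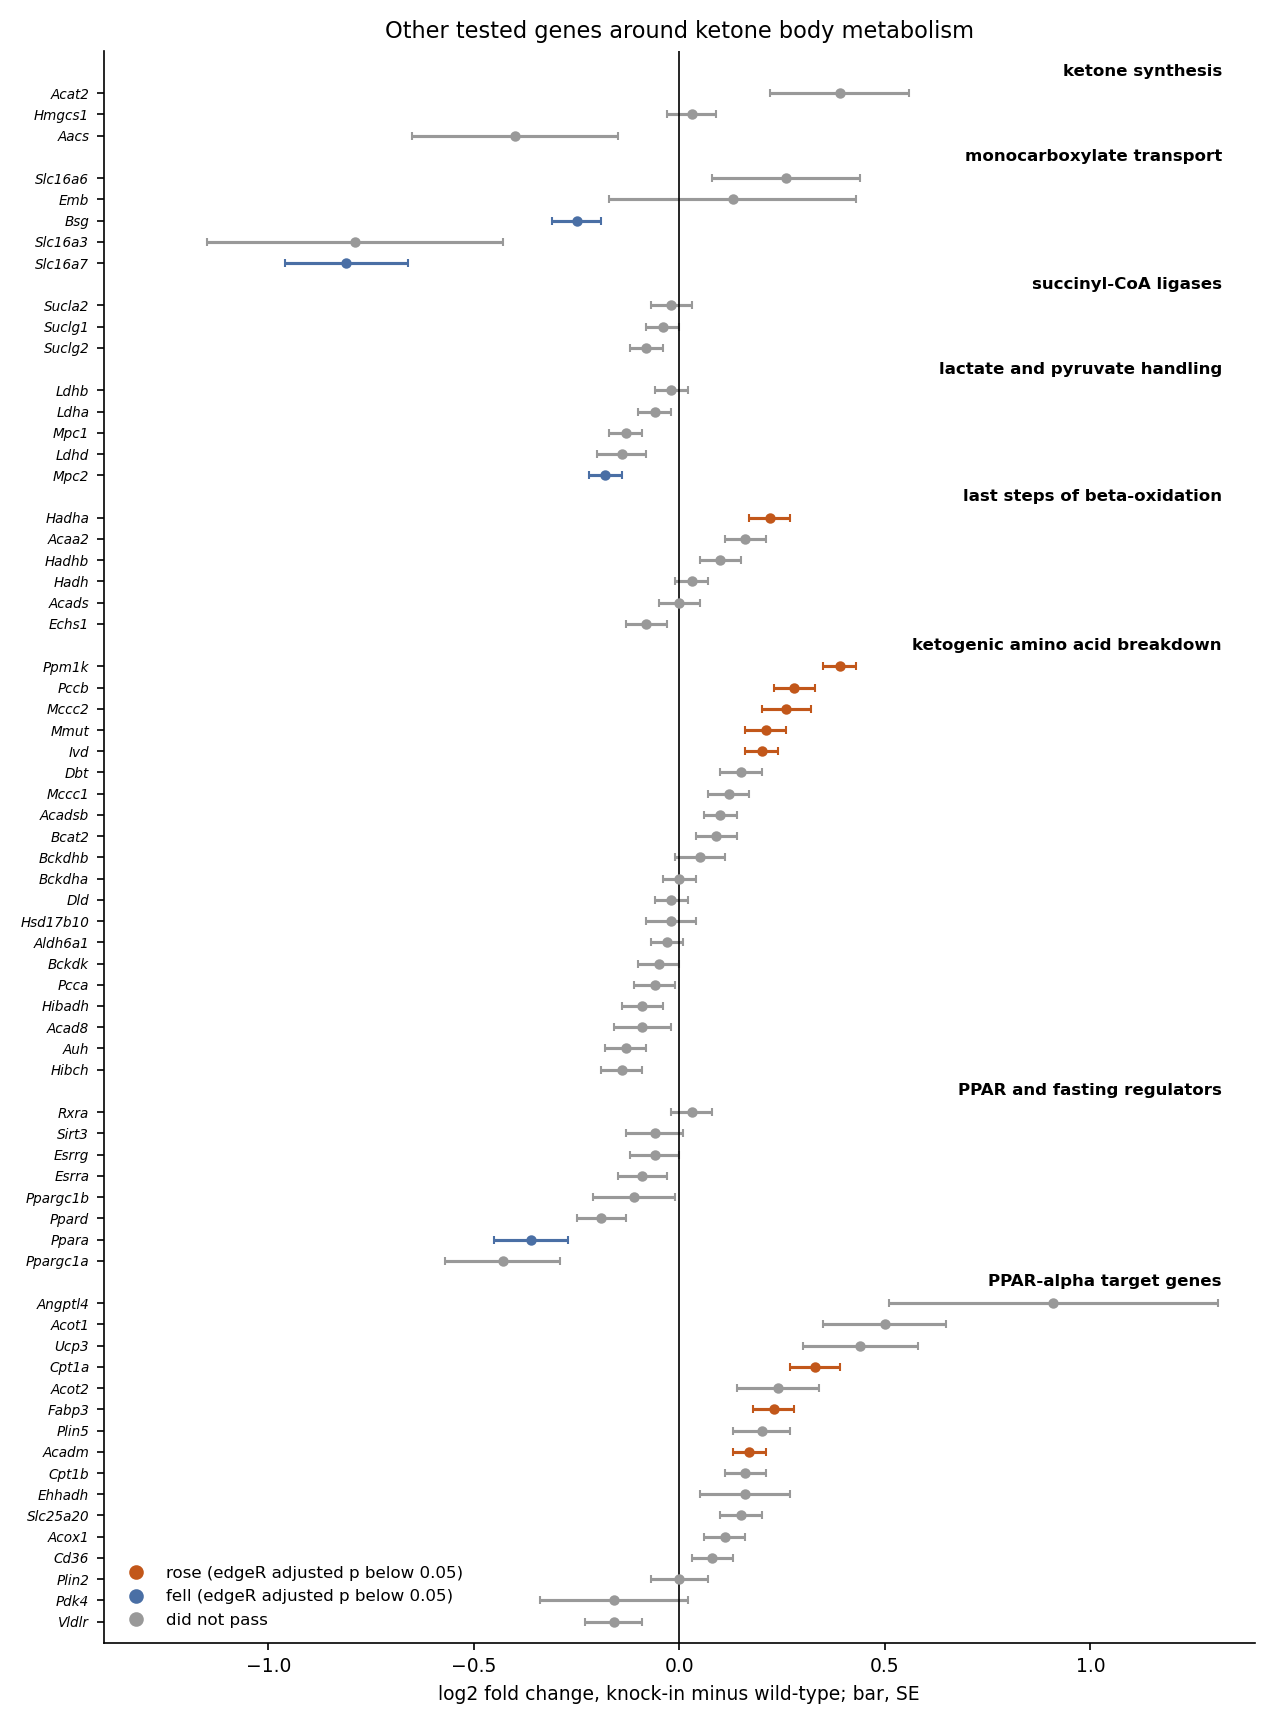
Log2 fold change (knock-in minus wild-type, bar SE) of tested genes in 8 of the lists, without those not reported here, with genes that rose in orange, genes that fell in blue and genes that did not pass in grey. Slc16a7 (-0.81) lies farthest from 0 among the called genes drawn, and Ppm1k (0.39) lies highest.

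Neighbouring genes were examined to see how far along the chromosome a difference extended. Distance was taken between the lowest coordinates of the annotated genes, whatever their strand. Within 1 Mb of Bdh1, 21 genes were tested and edgeR called 0 of them. There were 3 at an unadjusted p below 0.05, and DESeq2 and limma-voom also called 0. Log2 fold changes of these neighbours ran from -0.28 to 0.28 with a median of 0.00, against -1.41 for Bdh1. The nearest tested genes were Apod, a secreted lipid carrier, and Ppp1r2, an inhibitor of protein phosphatase 1, both on the minus strand, whose transcription starts lie 107 and 147 kb from that of Bdh1. Around the other 3 genes, C7 fell near Oxct1 (1 of 5 tested), Dmxl2 fell near Acat1 by 0.49 on the log2 scale (1 of 8), and near Slc16a1 Magi3 rose and Rhoc and Cttnbp2nl fell (3 of 16). Around all 4 genes together edgeR called 5 of 50 tested neighbours, where it called 9.01% of all genes tested. C7, a complement component, had a log2 fold change of -1.58 ± 0.15 (SE, edgeR adjusted p = 0.00046) at 962 kb from Oxct1 between lowest coordinates. Between transcription starts it lay 1037 kb away, so that by this measure, added after seeing the data, edgeR called 0 of 4 genes near Oxct1, with 0 at an unadjusted p below 0.05 and 0 by DESeq2 or limma-voom. The genes called near Acat1 and Slc16a1 were the same by either measure. Rhoc did not pass without wild-type mouse 1 or 2 or knock-in mouse 3 (edgeR adjusted p = 0.0552, 0.0656 and 0.0756), nor Cttnbp2nl without wild-type mouse 2 or 3 or knock-in mouse 2 or 3 (0.0625, 0.0633, 0.058 and 0.0979).

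**Figure D5:**
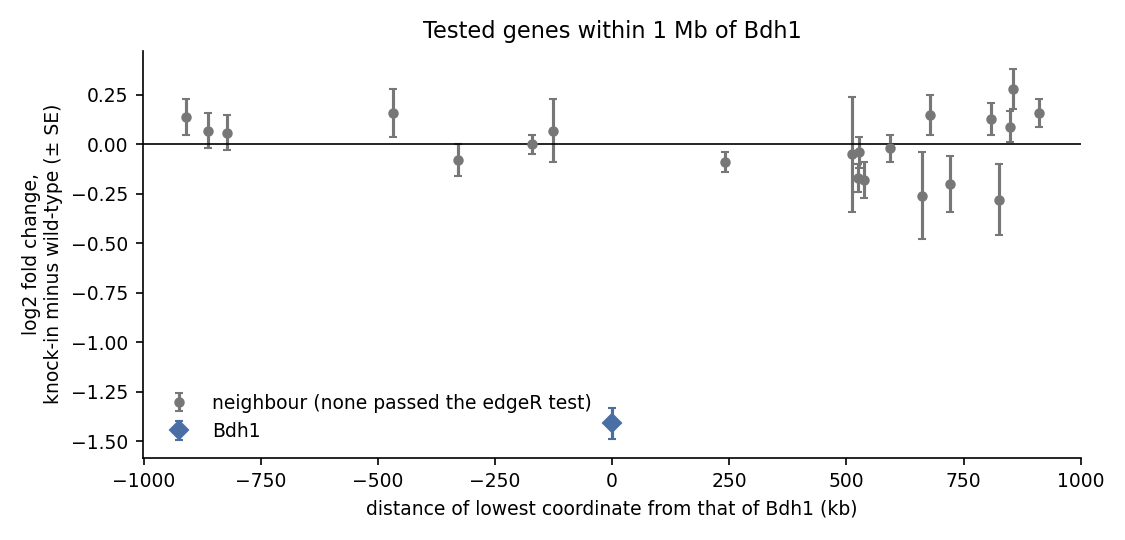
Log2 fold change (knock-in minus wild-type, ± SE) of tested genes against the distance of their lowest coordinate from that of Bdh1, in kilobases. The 21 neighbours lie between -0.28 and 0.28 and Bdh1 at -1.41.

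The genes whose profile over the 6 libraries lay nearest to that of Bdh1 were Nr4a2, Ighg2c, Gm14440, Cdh4 and Mt2. The measure is the root-mean-square difference between log2-CPM profiles, each centred on its own mean, which was 0.100 for Nr4a2, an orphan nuclear receptor, and 0.151 for the metallothionein Mt2, against a median of 0.732 over all genes tested. Nr4a2 was at 4.13, 3.93 and 4.05 CPM in the 3 wild-type mice, against 1.97, 1.27 and 1.51 CPM in the 3 knock-in mice. The likeness rests mainly on the gap between the genotypes, which Bdh1 was chosen for. Among the 4 genes the nearest pair was Acat1 and Slc16a1 (0.081), and Bdh1 was 0.644 from Oxct1, 0.773 from Slc16a1 and 0.805 from Acat1.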

How the data were processed

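The deposited table holds estimated counts per gene symbol for 6 libraries, which the authors made with kallisto 0.44.0 after bcl2fastq 2.19 on build GRCm38, per the submitters' processing notes. Libraries came from a TruSeq stranded kit, per the labels' protocols. How transcripts were summed and rounded, which transcript annotation served, and whether strand was used, is not stated in the labels or notes used here. All values were whole numbers. Overlapping or antisense genes and near-identical copies (Oxct2a and Oxct2b, Acat2 and Acat3) are uncertain.

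Genes were kept by filterByExpr (13485 of 34945), scaled by TMM and tested for genotype with edgeR 4.0.16 in R 4.3.3 (quasi-likelihood F test, two-sided, no covariate), with Benjamini-Hochberg adjustment over all genes tested. P-values set the difference between the genotypes against the spread between mice of a genotype (3 mice each), estimated with information shared between genes. Coordinates and lengths came from GENCODE M21, in which 34165 symbols matched 1 gene, and promoter windows from RefSeq (GRCm38.p6). The mutase listed as Mut is in the table as Mmut.

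The 4 genes and all lists were chosen with earlier results of these data known. Named genes are the 4, every called list gene, the 2 genes of smallest p in a list with no call, list genes at 0 counts, called neighbours within 1 Mb, the 5 nearest profiles, Rrad and Nnt. Bdh2, Hcar2, Hmgcs1, Slc16a3, Mccc1, Pcca, Ppargc1a, Pdk4, Apod and Ppp1r2 are examples chosen after their values were seen. The text and plots omit certain list genes, not reported here, which the counts still include. Other settings were DESeq2 1.42.0, limma-voom (limma 3.58.1), other scalings, other filters, mitochondrial transcripts left out, robust dispersions, and each library left out. The second length per gene and the distance between transcription starts were added after seeing the data. Limits from a count of 0 cover counting error only.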

Additional observations from a re-analysis of the deposited data

How the results depend on the processing

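Over the 15 other settings the log2 fold changes of Bdh1, Oxct1, Acat1 and Slc16a1 kept their sign. Library size alone put Oxct1 at -0.23 and Acat1 at 0.09, and by construction it moved all genes, with a median shift of -0.08. It gave 227 genes higher and 1177 lower over all genes tested, against 540 and 675, and 3 higher and 9 lower in the wider lists, against 10 and 4. Upper-quartile factors gave 604 higher and 573 lower. Leaving out a library, which leaves fewer mice, gave 338 (without knock-in replicate 3) to 1378 calls (without knock-in replicate 1) in place of 1215, with 136 to 601 higher and 202 to 777 lower. In the wider lists such fits gave 6 to 12 calls in place of 14, with 5 to 9 higher and 1 to 3 lower. Among neighbours within 1 Mb they gave 3 to 7 calls in place of 5, with 1 to 2 higher and 2 to 5 lower. Rrad, at 0.25 on the log2 scale (edgeR adjusted p = 0.554), ran from -0.03 without knock-in replicate 2 to 0.48 without knock-in replicate 1, and the cause was not tested. No paired analysis was possible because the labels carry no replicate numbers shared between the genotypes. Genes with few counts, such as Bdh2 and the ketone receptors, could not be compared at this depth.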
